A study of Mus musculus with 12 samples.

Results

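Transcripts of 49 genes that build and run the DNA replication origin and fork were followed in mouse fibroblasts on gels of different stiffness and stress relaxation. The genes were taken by symbol from a list of replication factors, a rule that names genes and sets no measured value as a criterion, although it was drawn up with earlier results of these data known. All 49 were among the 33246 genes of the count table, and all 49 passed the filter on low counts that left 14542 genes for testing. By role they were 15 licensing genes, 8 genes of origin firing and helicase activation, 9 genes of DNA polymerases and primase, 6 genes of the sliding clamp and its loader, 3 genes of the single-strand binding protein RPA, 2 genes of lagging-strand maturation, 4 genes of deoxynucleotide supply and 2 genes of the chromatin assembly factor CAF-1. The cells were primary fibroblasts isolated from the ears of mice, which the study's methods describe as C57BL/6 animals of both sexes and 1 month of age, with cells of Tau-EGFP reporter mice also prepared there. They were expanded to passage 2, and 500000 cells were then kept for 48 h on alginate hydrogels carrying RGD peptides as adhesion ligands. The gels were covalently crosslinked (elastic) or crosslinked by calcium ions and slowly relaxing (viscoelastic), each at 2 kPa and at 20 kPa, and every one of the 4 groups held 3 samples. Poly-A RNA was sequenced.

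DNA replication is prepared before S phase, when the origin recognition complex together with Cdc6 and Cdt1 loads the ring-shaped MCM2-7 helicase onto origins, a step called licensing that geminin blocks by binding Cdt1. In S phase the kinase Cdc7 with its activator Dbf4 and the cyclin-dependent kinases turn the loaded ring into an active helicase that contains Cdc45 and GINS. Polymerase alpha with primase then starts each strand and polymerases delta and epsilon extend it on the PCNA clamp, while RPA covers the exposed single strand, and flap removal and ligation join the lagging-strand pieces. Many of these genes are transcribed at the entry to S phase under E2F factors, so cultured fibroblasts that divide carry more of their transcripts than resting ones.

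Gene counts summed to 36626221 to 43612804 reads in a sample. The factors of the trimmed mean of M-values (TMM) normalization lay between 0.968 and 1.03. Levels are given as CPM, read counts scaled to the TMM-normalized library size, and listed in the order of replicates 1 to 3. All 10 fibroblast markers examined were present in each sample, with a summed level of 23521 to 29850 CPM. Markers of keratinocytes (13.7 to 23.4 CPM summed, mostly Trp63 at 10.8 to 20.1 CPM, with Krt5 and Krt14 at no more than 0.454 and 0.177 CPM), endothelial cells (2.24 to 3.69), immune cells (4.21 to 7.66), Schwann cells (3.74 to 6.63), melanocytes (0.674 to 1.26) and skeletal muscle (0.0701 to 0.384) were low. Of 4 cartilage markers, Col2a1 (2369 to 3544 CPM), Acan (869 to 1558 CPM) and Col9a1 (178 to 385 CPM) were high in all 12 samples and Matn1 was near 0. The summed cartilage markers were 3905 to 5051 CPM on 2-kPa elastic, 3499.8 to 3666 on 20-kPa elastic, 3745 to 4800.5 on 2-kPa viscoelastic and 3756 to 5103 on 20-kPa viscoelastic gels. The lowest cartilage sums thus stood in the group where most replication genes were highest. Other sums moved with the groups too. Those of keratinocyte markers were 13.7 to 17.01 CPM on 2-kPa elastic, 18.004 to 21.01 on 20-kPa elastic, 19.8 to 23.1 on 2-kPa viscoelastic and 21.6 to 23.4 on 20-kPa viscoelastic gels, without overlap between gel types at either stiffness or between the elastic groups. Endothelial markers summed to 2.24 to 2.38, 3.26 to 3.35, 3.15 to 3.69 and 2.32 to 2.90 CPM in that order, and fibroblast markers at 20 kPa to 23521 to 25480.4 CPM on elastic and 27283 to 29850 CPM on viscoelastic gels. The part of these markers in the results below was not tested.

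The 49 genes together took 1761 to 1850.2 CPM in the samples on 2-kPa elastic gels, 2092 to 2344 CPM on 20-kPa elastic gels, 1483 to 1576 CPM on 2-kPa viscoelastic gels and 1491 to 1744 CPM on 20-kPa viscoelastic gels. The sums on 20-kPa elastic gels lay above all others, and no viscoelastic sample reached the lowest elastic sample. In bulk RNA, fewer cells in S phase and less of a transcript in each cell cannot be told apart. The study also followed proliferation by EdU labeling at 48 h. It reports a rise with stiffness among elastic gels. By gel type, it reports more proliferation with viscoelastic gels at 2 kPa and no significant difference at 20 kPa. The sums by gel type thus did not run parallel to the reported EdU result. How the EdU result relates to these transcript levels was not tested. The mean level was highest on 20-kPa elastic gels for 44 of the 49 genes. It was lowest on 2-kPa viscoelastic gels for 38 genes, on 2-kPa elastic gels for 6 and on 20-kPa viscoelastic gels for 5. Per kilobase of annotated exon, the transcript levels averaged over the 12 samples ran from 0.605 CPM per kilobase for Fen1 to 36.7 for Rrm2, with Pcna at 25.5, Mcm4 at 25.1 and Orc1 at 2.11. The level of Fen1 is uncertain, because 84.2% of its exon bases are shared with genes on the opposite strand and no strand setting is stated.

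**Figure D1:**
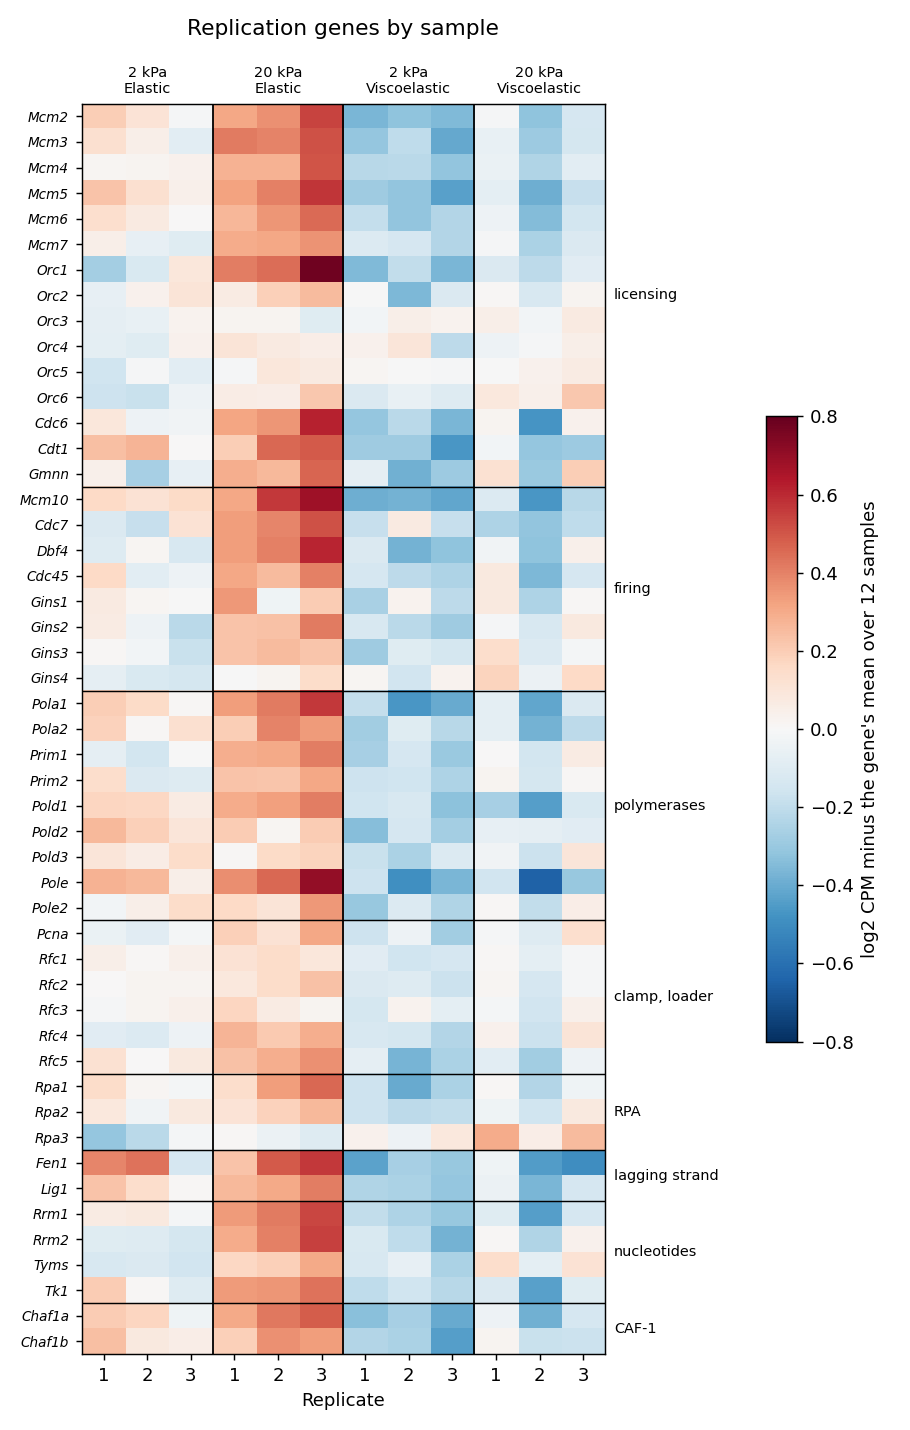
Each cell of the heat map is the log2 CPM of a replication gene (rows, grouped by role) in a sample (columns, 3 replicates of each gel group) minus that gene's mean over the 12 samples. The 20-kPa elastic columns are the warmest and the viscoelastic columns mostly cold, while Orc3, Orc4 and Orc5 show little color and Rpa3 runs the other way.

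Counts were compared by edgeR's quasi-likelihood test in one fit of all 12 samples. A gene was called where its p, adjusted by the method of Benjamini and Hochberg (BH) over all 14542 genes, was under 0.05. The labels number the replicates without naming separate cultures or animals, so the p-values measure the spread between these samples. The comparisons share samples: those on 20-kPa elastic gels enter both the stiffness comparison on elastic gels and the viscoelastic comparison at 20 kPa, and each other group likewise enters both a stiffness and a viscoelastic comparison. On elastic gels, 26 of the 49 genes rose from 2 to 20 kPa, against 6.81% of all tested genes, and 0 fell, against 7.14% (edgeR, 0 also at an unadjusted p under 0.05, and 0 with DESeq2). The median log2 fold change of the 49 genes was 0.27 and 48 of the 49 values were positive. Over all tested genes the median lay between −0.0083 and 0.017 in this and the comparisons that follow. On viscoelastic gels 0 genes rose and 0 fell with stiffness by edgeR, against 1.58% and 0.695% of all tested genes. At an unadjusted p under 0.05, 9 rose and 0 fell there, against 11.7% and 7.36% of all tested genes, DESeq2 called 0, and the median was 0.14 with 44 values above 0.

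At 20 kPa, 35 of the 49 genes were lower on viscoelastic than on elastic gels, against 16.1% of all tested genes, and 1 (Rpa3) was higher, against 17.4%. The median log2 fold change was −0.40 and the groups did not overlap for 40 genes that were lower, against 23.7% of all tested genes. At 2 kPa, 23 genes were lower, against 11.1% of all tested genes, with a median of −0.21. By edgeR 0 were higher at 2 kPa, against 8.77% (1 at an unadjusted p under 0.05, and 0 with DESeq2). Averaged over both stiffnesses, 39 genes were lower on viscoelastic gels and 1 was higher, against 20.4% and 19.6% of all tested genes, with a median of −0.33. Of the genes called lower, 22 were shared by the 2 stiffnesses, which are 22 of the 23 that fell at 2 kPa and 22 of the 35 that fell at 20 kPa, and the gene called lower at 2 kPa alone was Pold3. Of the 26 genes that rose with stiffness on elastic gels, 21 were lower on viscoelastic gels at 20 kPa, a pairing of comparisons that both use the 20-kPa elastic samples.

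Each comparison of 2 groups was repeated under 20 alternative settings, which changed the normalization, the filter, the fit or the test, or left out a library. Libraries of the groups outside a comparison were left out in turn too. Those settings bear on the comparison only through the shared fit, so the counts of settings held include some that changed it little. Of the 35 genes lower at 20 kPa, 28 were called in all 20, and the others in 11 (Pold2, Pole2 and Rfc1), 15 (Rpa2), 16 (Rfc2) and 18 (Gins2 and Rfc4). Of the 23 genes lower at 2 kPa, 13 were called in all 20, and the others in 8 (Fen1), 9 (Rfc1), 10 (Pole2), 14 (Pola2), 15 (Rpa2), 16 (Rrm1), 17 (Pold1 and Rfc5), 18 (Rpa1) and 19 (Mcm4). Of the 26 genes that rose with stiffness on elastic gels, 11 held in all 20 settings. The others held in 9 (Gins3), 13 (Cdc45 and Chaf1a), 14 (Prim2), 15 (Pola1 and Pcna), 16 (Mcm5 and Gmnn), 17 (Mcm2, Mcm6, Mcm10, Orc6, Cdc6 and Tk1) and 18 (Gins2).

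Some of these counts dropped when a single library was left out, and the counts over all tested genes dropped too. Without replicate 3 on 20-kPa elastic gels, which was the highest of its group for 38 genes, 11 genes rose with stiffness on elastic gels, and without replicate 2 or 3 on 2-kPa elastic gels 12 and 13 rose. Over all tested genes, calls for stiffness on elastic gels in either direction went from 2029 to 1063, 1341 and 1360 in the same order. At 2 kPa, 15 genes fell on viscoelastic gels without replicate 1 on elastic gels and 14 without replicate 3 on viscoelastic gels. There the calls over all tested genes, in either direction, went from 2892 to 1545 and 1958. Replicate 2 on 20-kPa viscoelastic gels was the lowest of its group for 45 of the 49 genes. Its summed level was 1491 CPM beside 1744 and 1719.6 CPM. Without it 28 genes still fell at 20 kPa, and without replicate 3 on 20-kPa elastic gels 28 fell too. Calls over all tested genes at 20 kPa, in either direction, went from 4866 to 3693 and 3177 in that order.

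**Figure D2:**
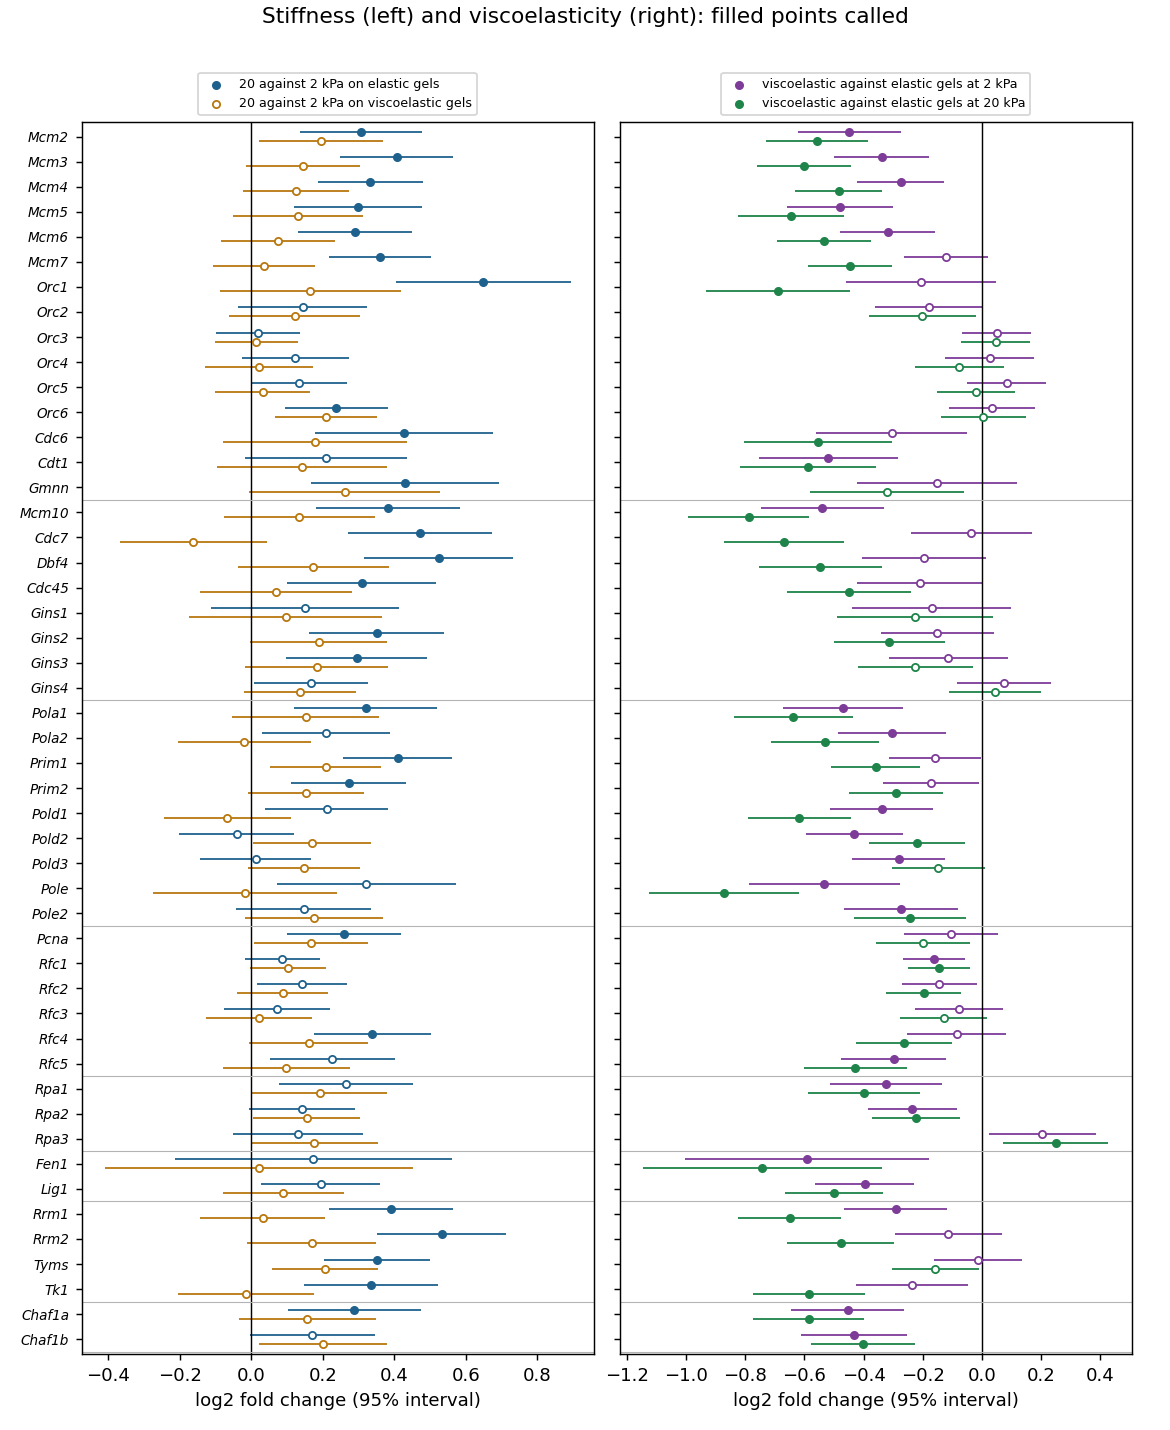
Points are the edgeR log2 fold changes of the 49 genes with 95% intervals, for stiffness on either gel type (left) and for viscoelastic against elastic gels at 2 and at 20 kPa (right), filled where called. On the left the filled points all stand above 0 and belong to elastic gels (26 genes), and on the right all filled points but that of Rpa3 stand below 0.

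In each of licensing, firing, fork and nucleotide supply, the gene with the lowest adjusted p in the mean viscoelastic effect was taken. Only genes with a promoter window on hand were considered, which left out Pole, for example. The promoters of the genes taken are printed to show the sequence from which genes that moved together are transcribed. They are windows of 300 bases, from 250 before to 50 after the start that RefSeq annotates on GRCm38.p6, written 5′ to 3′ on the gene's strand. Capitals mark the words searched: E2F sites (TTTGGCGC, TTTCCCGC, TTTGCCGC or TTTCGCGC, on both strands) and CCAAT boxes (CCAAT, on both strands). Positions count from 0 at the annotated start. The Mcm5 window (chr8:75109259-75109558, plus strand) holds 2 overlapping E2F words at −153 and −149 and CCAAT boxes at −77, −22 and 6, and that of Mcm10 (chr2:5012742-5013041, minus strand) holds CCAAT boxes at −98, −23 and 31. The Pold1 window (chr7:44548766-44549065, minus strand) has an E2F word on the reverse strand at 39, and the Rrm1 window (chr7:102441445-102441744, plus strand) has CCAAT boxes at −91 and −45.
Mcm5: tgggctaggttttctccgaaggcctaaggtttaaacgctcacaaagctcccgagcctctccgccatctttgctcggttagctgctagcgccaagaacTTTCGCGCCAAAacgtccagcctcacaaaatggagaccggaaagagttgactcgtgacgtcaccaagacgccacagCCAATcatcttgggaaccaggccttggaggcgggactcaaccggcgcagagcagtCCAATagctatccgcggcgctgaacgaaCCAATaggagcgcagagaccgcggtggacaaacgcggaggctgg
Mcm10: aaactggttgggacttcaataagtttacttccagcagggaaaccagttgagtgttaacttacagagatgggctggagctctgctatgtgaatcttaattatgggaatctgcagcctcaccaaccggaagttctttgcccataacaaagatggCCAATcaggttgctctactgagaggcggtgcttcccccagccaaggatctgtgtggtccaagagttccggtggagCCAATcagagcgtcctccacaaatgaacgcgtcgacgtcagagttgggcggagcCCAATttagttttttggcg
Pold1: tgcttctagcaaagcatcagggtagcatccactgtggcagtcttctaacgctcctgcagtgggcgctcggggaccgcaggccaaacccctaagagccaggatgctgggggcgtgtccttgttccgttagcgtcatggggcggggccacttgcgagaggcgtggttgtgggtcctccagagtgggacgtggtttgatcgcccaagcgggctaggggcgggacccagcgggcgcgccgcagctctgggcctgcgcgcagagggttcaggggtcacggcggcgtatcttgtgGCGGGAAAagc
Rrm1: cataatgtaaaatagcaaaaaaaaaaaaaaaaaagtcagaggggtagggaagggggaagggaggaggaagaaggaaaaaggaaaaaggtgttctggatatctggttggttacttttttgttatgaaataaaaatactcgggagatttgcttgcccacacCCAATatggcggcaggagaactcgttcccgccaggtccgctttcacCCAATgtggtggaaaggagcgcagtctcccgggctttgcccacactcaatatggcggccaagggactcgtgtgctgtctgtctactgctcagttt

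RefSeq promoter windows were on hand for 41 of the 49 genes. An E2F word stood in the windows of 15 of them (36.6%), compared with 2.61% of the 27025 genes with a window and 4.54% of the 10882 tested genes with one. The 15 were Mcm3, Mcm5, Mcm6, Mcm7, Orc1, Orc3, Cdc6, Cdt1, Gins3, Pola1, Pold1, Pold3, Pole2, Rfc3 and Lig1. Among these, Mcm3, Mcm5, Mcm6, Cdt1, Pola1, Pold1, Pole2 and Lig1 fell at both stiffnesses, while Orc3 and Rfc3 were called in no comparison. Of genes whose windows lacked the word, Mcm2, Mcm10, Pola2, Pold2, Rfc1, Rfc5, Rpa1, Rpa2, Fen1, Rrm1, Chaf1a and Chaf1b fell at both stiffnesses. Orc4 and Orc5, also without it, were called in no comparison. Whether the word goes with the calls was not tested. CCAAT boxes stood in 24 of the 41 windows (58.5%), compared with 42.9% of the tested genes. The CHR element (TTTGAA or TTCGAA, on both strands), known from genes of the late cell cycle, stood in 9 windows (21.95%), compared with 16.6%. The median GC content was 61.8% in the windows of the 41 genes and 60.3% in those of the tested genes. A match is a word in a window and not a site shown to be bound. Other spellings and sites outside the window were not searched, so a window without a match does not show that a site is absent. The Mcm10 window, for example, ends in tttggcg, the first bases of the word TTTGGCGC.

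Among licensing genes, the 6 subunits of the MCM2-7 helicase moved together. All 6 rose with stiffness on elastic gels, by log2 fold changes of 0.29 (Mcm6) to 0.41 (Mcm3). All 6 were lower on viscoelastic gels at 20 kPa, with log2 fold changes of −0.45 (Mcm7) to −0.65 (Mcm5), and 5 were lower at 2 kPa. Each of the 6 calls at 20 kPa held in all 20 alternative settings, while the stiffness calls held in 16 of 20 for Mcm5, 17 of 20 for Mcm2 and 17 of 20 for Mcm6 and were lost there with single libraries left out. Mcm5 (chr8:75109569-75128439) stood at 59.3, 55.2 and 52.1 CPM on 2-kPa elastic gels, 63.1, 66.9 and 75.1 on 20-kPa elastic gels, 41.5, 40.6 and 37.5 on 2-kPa viscoelastic gels and 47.9, 38.5 and 44.6 on 20-kPa viscoelastic gels. No viscoelastic sample reached any elastic sample, and the 20-kPa elastic samples lay above those at 2 kPa. The viscoelastic difference of Mcm5 was −0.48 on the log2 scale at 2 kPa (95% interval −0.66 to −0.30, edgeR adjusted p = 0.00147) and −0.65 at 20 kPa (−0.83 to −0.47, edgeR adjusted p = 0.000140), a change of −36.1%.

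Mcm3 (chr1:20802968-20820312) had 61.7, 58.4 and 53.2 CPM on 2-kPa and 75.2, 74.2 and 80.4 CPM on 20-kPa elastic gels, compared with 45.5, 49.03 and 42.5 and 54.2, 46.1 and 51.2 CPM on the viscoelastic gels of 2 and 20 kPa. Its viscoelastic samples lay below the elastic samples of the same stiffness. The rise with stiffness on elastic gels was 0.41 on the log2 scale (edgeR adjusted p = 0.00234) while that on viscoelastic gels was 0.14 (edgeR adjusted p = 0.317). For Mcm2 the samples read 55.6, 52.4 and 48.3 CPM on 2-kPa elastic, 60.3, 62.5 and 70.7 on 20-kPa elastic, 37.8, 38.9 and 38.01 on 2-kPa viscoelastic and 48.2, 38.9 and 44.3 on 20-kPa viscoelastic gels. Both viscoelastic groups lay below the elastic samples, with log2 differences of −0.45 and −0.56 at 2 and 20 kPa (edgeR adjusted p = 0.00175 and 0.000221). Mcm7 (chr5:138164583-138172422) differed from the other subunits in its calls. Its samples read 58.6, 54.05 and 53.05 CPM on 2-kPa elastic, 69.6, 70.2 and 72.9 on 20-kPa elastic, 52.6, 51.7 and 48.2 on 2-kPa viscoelastic and 56.4, 47.5 and 52.3 on 20-kPa viscoelastic gels. The 20-kPa elastic samples stood alone. At 2 kPa its viscoelastic difference was −0.12 (−0.26 to 0.02, edgeR adjusted p = 0.219) and at 20 kPa −0.45 (−0.59 to −0.30, edgeR adjusted p = 0.000261). Mcm4 and Mcm6 were the most abundant subunits per kilobase, at 25.1 and 21.9 CPM per kilobase, and their log2 differences between gel types at 20 kPa were −0.48 and −0.53.

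The 6 genes of the origin recognition complex, which marks the sites for loading, did not follow the helicase as a group. Only Orc1 was called lower on viscoelastic gels, at 20 kPa, and only Orc1 and Orc6 rose with stiffness on elastic gels, with a median log2 fold change over the complex of −0.048 for viscoelastic against elastic gels at 20 kPa. Orc1, singled out after its values were seen, is the subunit whose amount is known to vary over the cell cycle. It had 5.90, 6.54 and 7.58 CPM on 2-kPa elastic gels, 9.46, 9.69 and 12.2 on 20-kPa elastic gels, 5.56, 6.22 and 5.54 on 2-kPa viscoelastic gels and 6.58, 6.15 and 6.70 on 20-kPa viscoelastic gels. Its 20-kPa elastic samples stood above the other 9, and its rise of 0.65 on the log2 scale (0.41 to 0.89, edgeR adjusted p = 0.00187) was the highest estimate of the 49 genes for stiffness on elastic gels. On 20-kPa viscoelastic gels it fell by 0.69 on the log2 scale (−0.93 to −0.45, edgeR adjusted p = 0.000492).

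Orc3, Orc4 and Orc5 were called in no comparison. Orc3, given here after its values were seen, had 58.6 ± 2.26 CPM on 2-kPa elastic, 59.4 ± 2.79 on 20-kPa elastic, 60.7 ± 1.41 on 2-kPa viscoelastic and 61.3 ± 1.94 on 20-kPa viscoelastic gels (SD, n = 3 each). The 95% interval of its log2 difference was −0.07 to 0.16 for viscoelastic against elastic gels at 20 kPa and −0.10 to 0.14 for stiffness on elastic gels, so a change as large as that of Mcm5 lay outside both. Orc6, which was also chosen after its values were seen, rose with stiffness on elastic gels by 0.24 on the log2 scale (edgeR adjusted p = 0.0293) and stood 0.0045 apart between gel types at 20 kPa (−0.14 to 0.15, edgeR adjusted p = 0.967). Orc2 was called lower only in the mean viscoelastic effect (−0.19, edgeR adjusted p = 0.0206). Of its exon bases 29.8% are shared with Nif3l1 on the opposite strand.

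Of the loading factors, Cdt1 had 11.1, 11.4 and 9.45 CPM on 2-kPa elastic, 10.8, 12.95 and 13.3 on 20-kPa elastic, 7.74, 7.76 and 6.85 on 2-kPa viscoelastic and 9.29, 7.63 and 7.73 on 20-kPa viscoelastic gels. At both stiffnesses its viscoelastic samples lay below the elastic ones, while the elastic groups overlapped. It was lower, with log2 differences of −0.52 at 2 kPa and −0.59 at 20 kPa (edgeR adjusted p = 0.00457 and 0.00101). Its stiffness difference on elastic gels was 0.21 (edgeR adjusted p = 0.207). The samples of Gmnn, which encodes the Cdt1 inhibitor geminin, read 11.6, 9.35 and 10.7 CPM, 13.7, 13.5 and 15.5 CPM, 10.7, 8.60 and 9.19 CPM and 12.2, 9.14 and 12.8 CPM in the same order of groups. Gmnn rose with stiffness on elastic gels by 0.43 (edgeR adjusted p = 0.0308). Its viscoelastic difference at 20 kPa of −0.32 missed the threshold (edgeR adjusted p = 0.0562) although the groups did not overlap. It passed in 9 of 20 alternative settings, DESeq2 among them. In the mean viscoelastic effect Gmnn was called lower, and this call held in 11 of 19 alternative settings. Cdc6, the loader of the helicase, rose by 0.43 on elastic gels and fell by 0.55 on viscoelastic gels at 20 kPa (edgeR adjusted p = 0.0240 and 0.00247). At 2 kPa its difference was −0.30 (edgeR adjusted p = 0.0858).

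Of the 8 genes of origin firing, 6 rose with stiffness on elastic gels. At 20 kPa 5 were lower on viscoelastic gels, and Mcm10 was also lower at 2 kPa. Mcm10 (chr2:4989714-5012791), which binds the helicase as it is activated, had 17.7, 17.1 and 17.6 CPM on 2-kPa elastic gels, 19.6, 23.4 and 25.3 on 20-kPa elastic gels, 12.1, 12.2 and 11.8 on 2-kPa viscoelastic gels and 14.6, 11.4 and 13.5 on 20-kPa viscoelastic gels. The elastic samples all stood above the viscoelastic ones. Its viscoelastic difference was −0.54 on the log2 scale at 2 kPa and −0.79 at 20 kPa (edgeR adjusted p = 0.00175 and 0.000112), a change of −42.1% at 20 kPa.

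Cdc7 (chr5:106964322-106984432), the kinase that phosphorylates the loaded helicase, had 10.2, 9.70 and 11.9 CPM on 2-kPa elastic gels, 13.9, 14.4 and 15.7 on 20-kPa elastic gels, 9.70, 11.6 and 9.69 on 2-kPa viscoelastic gels and 9.27, 8.85 and 9.56 on 20-kPa viscoelastic gels. The 20-kPa elastic samples stood above all others and the 20-kPa viscoelastic samples below all others. Cdc7 rose with stiffness by 0.47 on the log2 scale on elastic gels (edgeR adjusted p = 0.00425), while on viscoelastic gels the difference was −0.16 (−0.37 to 0.04, edgeR adjusted p = 0.389). Its difference between gel types at 20 kPa was −0.67 (edgeR adjusted p = 0.000202), compared with −0.04 at 2 kPa (−0.24 to 0.17, edgeR adjusted p = 0.824). Dbf4, its activating subunit, had means of 37.9 ± 2.01, 54.5 ± 5.60, 33.04 ± 3.24 and 37.3 ± 4.86 CPM in the same order of groups (SD, n = 3 each). It rose by 0.52 on elastic gels and differed by −0.55 between gel types at 20 kPa (edgeR adjusted p = 0.00267 and 0.000837).

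Cdc45, a component of the active helicase, rose by 0.31 on elastic gels and fell by 0.45 on 20-kPa viscoelastic gels (edgeR adjusted p = 0.0477 and 0.00304), and the rise was called in 13 of 20 alternative settings. Of the 4 GINS genes, Gins2 and Gins3 rose with stiffness on elastic gels (0.35 and 0.29 on the log2 scale, edgeR adjusted p = 0.0161 and 0.0451), although the call for Gins3 held in 9 of 20 alternative settings and was lost with the replicate block. Gins2 alone was lower at 20 kPa (−0.31, edgeR adjusted p = 0.0136). Gins1 and Gins4 were called in no comparison as fitted. The log2 difference between gel types at 20 kPa was −0.23 for Gins1 (−0.49 to 0.04) and 0.04 for Gins4 (−0.11 to 0.20). With offsets for gene length and GC content the difference of Gins1 was −0.42 and was called (edgeR adjusted p = 0.0158). Of the exon bases of Gins2, 67.3% are shared with Gse1 on the opposite strand, and no strand setting is stated for the counts.

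**Figure D3:**
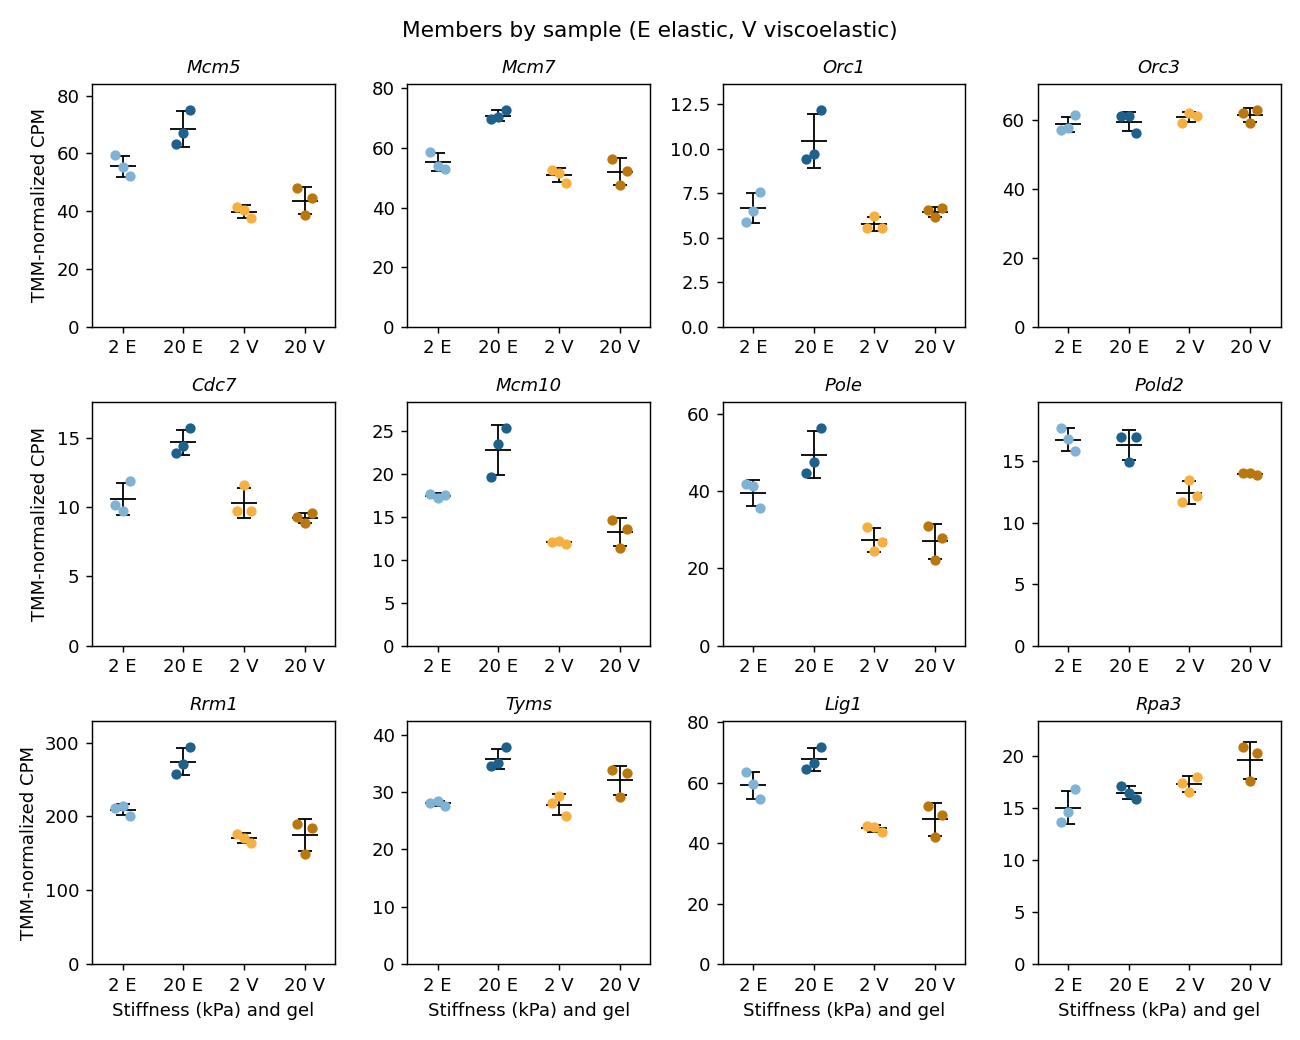
TMM-normalized CPM (vertical axes, from 0) of 12 replication genes in every sample of the 4 gel groups, with points for samples, the horizontal bar for the mean and error bars for the SD (n = 3). Mcm5, Mcm10, Pole and Lig1 are lower in the viscoelastic groups at both stiffnesses, Mcm7, Orc1, Cdc7 and Rrm1 stand highest on 20-kPa elastic gels, and Orc3 is level.

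At the fork, 8 of the 9 polymerase and primase genes were lower at 20 kPa on viscoelastic gels and 7 at 2 kPa, while 3 (Pola1, Prim1 and Prim2) rose with stiffness on elastic gels. Pole (chr5:110286306-110337474), the catalytic subunit of the leading-strand polymerase epsilon, had 41.8, 41.2 and 35.7 CPM on 2-kPa elastic gels, 44.6, 47.4 and 56.2 on 20-kPa elastic gels, 30.7, 24.5 and 26.8 on 2-kPa viscoelastic gels and 31.03, 22.04 and 27.9 on 20-kPa viscoelastic gels. The viscoelastic samples all lay below the elastic ones. Its difference at 20 kPa, −0.87 on the log2 scale (−1.13 to −0.62, edgeR adjusted p = 0.000172), was the lowest estimate of the 49 genes, a change of −45.4%. At 2 kPa it was −0.53 (edgeR adjusted p = 0.00649). Stiffness on elastic gels moved Pole by 0.32 without a call (edgeR adjusted p = 0.0832), although the groups did not overlap. It was called in 6 of 20 alternative settings.

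Pold1 (chr7:44532746-44548849), the catalytic subunit of polymerase delta, had 19.6, 19.5 and 18.3 CPM on 2-kPa elastic, 21.4, 21.9 and 23.2 on 20-kPa elastic, 15.6, 15.9 and 13.9 on 2-kPa viscoelastic and 14.5, 12.9 and 16.1 on 20-kPa viscoelastic gels. Every viscoelastic sample was below every elastic sample, with differences of −0.34 and −0.62 on the log2 scale at 2 and 20 kPa (edgeR adjusted p = 0.00951 and 0.000154). The call at 2 kPa was lost with offsets for gene length and GC content, which gave −0.23 (edgeR adjusted p = 0.0959). The accessory subunits Pold2 and Pold3, taken up after their values were seen, moved differently. Pold2 was the single member whose mean was highest on 2-kPa elastic gels, at 16.8 ± 0.937 CPM, compared with 16.3 ± 1.20 on 20-kPa elastic, 12.4 ± 0.927 on 2-kPa viscoelastic and 14.01 ± 0.0989 on 20-kPa viscoelastic gels (SD, n = 3 each). Its viscoelastic difference was −0.43 at 2 kPa and −0.22 at 20 kPa (edgeR adjusted p = 0.00161 and 0.0373). The second call held in 11 of 20 alternative settings. At 2 kPa Pold3 fell by 0.28 (edgeR adjusted p = 0.0148) and its difference was −0.15 at 20 kPa (edgeR adjusted p = 0.134). Pola1, the catalytic subunit of polymerase alpha, was lower, with log2 differences of −0.47 and −0.64 at 2 and 20 kPa (edgeR adjusted p = 0.00362 and 0.000255). The primase genes Prim1 and Prim2 fell at 20 kPa and were not called at 2 kPa, with differences at 20 kPa of −0.36 and −0.29 (edgeR adjusted p = 0.00163 and 0.00826).

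The clamp and its loader moved less. Pcna (chr2:132249162-132253314), the ring that holds polymerases on DNA and a common proliferation marker, had 58.7, 57.3 and 60.3 CPM on 2-kPa elastic gels, 69.4, 66.1 and 75.6 on 20-kPa elastic gels, 54.3, 59.3 and 50.2 on 2-kPa viscoelastic gels and 60.6, 56.6 and 66.7 on 20-kPa viscoelastic gels. The 20-kPa elastic samples were above those at 2 kPa on elastic gels, and the gel types overlapped at both stiffnesses. It rose with stiffness on elastic gels by 0.26 on the log2 scale (edgeR adjusted p = 0.0303). Its viscoelastic difference was −0.20 at 20 kPa (−0.36 to −0.04, edgeR adjusted p = 0.0511) and −0.11 at 2 kPa (edgeR adjusted p = 0.340). The value at 20 kPa lies beside the threshold and was called in 9 of 20 alternative settings. In the mean viscoelastic effect Pcna was called lower, a call that held in 12 of 19 alternative settings.

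Of the 5 genes of replication factor C, which opens the clamp, 4 were lower on viscoelastic gels at 20 kPa, 2 (Rfc1 and Rfc5) at 2 kPa, and 1 (Rfc4) rose with stiffness on elastic gels. Rfc5 had 21.7, 19.98 and 21.1 CPM on 2-kPa elastic, 23.5, 24.3 and 25.7 on 20-kPa elastic, 18.9, 15.4 and 16.7 on 2-kPa viscoelastic and 18.8, 16.5 and 19.3 on 20-kPa viscoelastic gels. Its groups of different gel type did not overlap. Its log2 differences were −0.30 and −0.43 at 2 and 20 kPa (edgeR adjusted p = 0.0199 and 0.00130). Rfc4 had 11.6, 11.46 and 11.999, 14.9, 14.3 and 15.1, 11.3, 11.2 and 10.5 and 12.7, 10.996 and 13.3 CPM in the same order of groups. It rose by 0.34 with stiffness on elastic gels and fell by 0.26 on the log2 scale at 20 kPa (edgeR adjusted p = 0.00933 and 0.0160). Rfc1, the large subunit, had differences of −0.16 and −0.15, calls that held in 9 of 20 and 11 of 20 alternative settings, and Rfc3 was called in no comparison as fitted and in 1 of 20 alternative settings at 20 kPa.

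The 3 RPA genes split. Rpa1, the large DNA-binding subunit, had 114, 104 and 102 CPM on 2-kPa elastic, 113, 129 and 141 on 20-kPa elastic, 91.3, 77.4 and 86.02 on 2-kPa viscoelastic and 103, 87.2 and 100.2 on 20-kPa viscoelastic gels. Rpa2, the middle subunit, had 21.6, 19.96 and 21.5, 21.97, 23.2 and 24.5, 18.2, 17.6 and 17.8 and 19.9, 18.3 and 21.5 CPM in that order. For both genes the viscoelastic samples lay below the elastic ones of the same stiffness. The log2 differences of Rpa1 were −0.32 and −0.40 at 2 and 20 kPa (edgeR adjusted p = 0.0186 and 0.00343), and those of Rpa2 −0.24 and −0.22 (edgeR adjusted p = 0.0287 and 0.0231). Rpa3, the small subunit and the only one of the 49 genes called higher on viscoelastic gels, was picked out after its values were seen. Its samples read 13.7, 14.6 and 16.8 CPM on 2-kPa elastic, 17.1, 16.5 and 15.9 on 20-kPa elastic, 17.4, 16.5 and 18.01 on 2-kPa viscoelastic and 20.9, 17.6 and 20.3 on 20-kPa viscoelastic gels. At 20 kPa it was higher by 0.25 (0.07 to 0.43, edgeR adjusted p = 0.0327). This call held in 13 of 20 alternative settings, and with offsets for gene length and GC content the difference was 0.0028 (edgeR adjusted p = 0.983).

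Both genes that finish the lagging strand were lower on viscoelastic gels at both stiffnesses and neither was called for stiffness. Lig1 (chr7:13277283-13311433), the ligase that joins Okazaki fragments, had 63.3, 59.5 and 54.4 CPM on 2-kPa elastic, 64.6, 66.5 and 71.7 on 20-kPa elastic, 45.8, 45.3 and 43.7 on 2-kPa viscoelastic and 52.3, 41.9 and 49.2 on 20-kPa viscoelastic gels. All 6 viscoelastic samples lay below all 6 elastic samples. Its differences were −0.40 and −0.50 on the log2 scale (edgeR adjusted p = 0.00312 and 0.000355). The stiffness difference on elastic gels was 0.19 (edgeR adjusted p = 0.113). Fen1, the flap endonuclease, had only 40 to 87 reads per sample, which gave 1.86, 1.91 and 1.29, 1.66, 1.98 and 2.10, 1.052, 1.18 and 1.15 and 1.38, 1.04 and 1.003 CPM in the same order. Its log2 differences were −0.59 and −0.74 at 2 and 20 kPa (edgeR adjusted p = 0.0433 and 0.00796), with intervals as wide as −1.002 to −0.18 at 2 kPa. The call at 2 kPa held in 8 of 20 alternative settings, and 84.2% of the exon bases of Fen1 are shared with genes on the opposite strand.

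All 4 genes of nucleotide supply rose with stiffness on elastic gels. At 20 kPa 3 were lower on viscoelastic gels, and 1, Rrm1, was also lower at 2 kPa. Rrm1 (chr7:102441695-102469771), the large subunit of ribonucleotide reductase, had 212, 215 and 200.5 CPM on 2-kPa elastic gels, 257, 271 and 294 on 20-kPa elastic gels, 177, 171 and 164 on 2-kPa viscoelastic gels and 189.9, 149 and 185 on 20-kPa viscoelastic gels. The groups kept apart in all but the stiffness comparison on viscoelastic gels. Rrm1 rose by 0.39 on the log2 scale on elastic gels (edgeR adjusted p = 0.00573). Its viscoelastic difference was −0.29 at 2 kPa and −0.65 at 20 kPa (edgeR adjusted p = 0.0209 and 0.000124), a change of −36.3% at 20 kPa. Rrm2, the small subunit of the same enzyme, had means of 92.1 ± 1.49, 133 ± 11.8, 85.1 ± 7.69 and 95.7 ± 9.77 CPM in that order (SD, n = 3 each). It rose by 0.53 on elastic gels and fell by 0.48 at 20 kPa (edgeR adjusted p = 0.000946 and 0.000776). At 2 kPa its difference was −0.11 (−0.29 to 0.07, edgeR adjusted p = 0.366).

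Tk1, the thymidine kinase of the salvage route, had 31.2, 27.3 and 25.3 CPM on 2-kPa elastic, 34.5, 34.7 and 36.7 on 20-kPa elastic, 23.6, 24.3 and 23.3 on 2-kPa viscoelastic and 25.04, 20.1 and 25.5 on 20-kPa viscoelastic gels. Its 20-kPa elastic samples stood above the other 9 samples. It rose by 0.33 on elastic gels and fell by 0.58 at 20 kPa (edgeR adjusted p = 0.0200 and 0.000290), compared with −0.24 at 2 kPa (edgeR adjusted p = 0.0748). Tyms, the thymidylate synthase, singled out after its values were seen, rose with stiffness on elastic gels by 0.35 (edgeR adjusted p = 0.00384) and had no call for gel type. Its viscoelastic difference was −0.01 at 2 kPa (−0.16 to 0.14) and −0.16 at 20 kPa (−0.30 to −0.01, edgeR adjusted p = 0.0894).

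Both CAF-1 genes, whose products lay histones on new DNA behind the fork, were lower on viscoelastic gels at each stiffness. Chaf1a had 26.5, 26.03 and 22.6 CPM on 2-kPa elastic, 28.5, 30.97 and 32.3 on 20-kPa elastic, 18.3, 19.2 and 17.5 on 2-kPa viscoelastic and 22.5, 17.7 and 21.04 on 20-kPa viscoelastic gels. Chaf1b had 19.9, 17.8 and 17.5, 19.2, 21.7 and 21.3, 14.3, 14.1 and 12.4 and 17.1, 14.9 and 14.97 CPM in that order. For both genes all viscoelastic samples lay below all elastic samples. The log2 differences of Chaf1a were −0.45 and −0.58 at 2 and 20 kPa (edgeR adjusted p = 0.00299 and 0.000279). Those of Chaf1b were −0.43 and −0.40 (edgeR adjusted p = 0.00264 and 0.00206). Chaf1a rose with stiffness on elastic gels (0.29, edgeR adjusted p = 0.0391), a call that held in 13 of 20 alternative settings and not with the replicate block. Of its exon bases 52.5% are shared with Ubxn6 on the opposite strand.

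Set side by side, the roles differed in where their calls fell, a difference between lists that was not tested. With stiffness on elastic gels 10 of 15 licensing genes, 6 of 8 firing genes, 5 of 20 fork genes and 4 of 4 nucleotide supply genes rose. The median log2 fold changes were 0.30, 0.33, 0.20 and 0.37. For viscoelastic against elastic gels at 2 kPa, 6 of 15 licensing, 1 of 8 firing, 13 of 20 fork and 1 of 4 nucleotide supply genes were lower, with medians of −0.21, −0.16, −0.28 and −0.18. At 20 kPa the counts were 9, 5, 16 and 3, with medians of −0.48, −0.38, −0.28 and −0.53. Over all tested genes 6.81% rose with stiffness on elastic gels, and 11.1% and 16.1% were lower for gel type at 2 and 20 kPa. At an unadjusted p under 0.05, 12 of the 20 fork genes rose with stiffness on elastic gels (14.1% of all tested genes), and 16 and 17 were lower for gel type at 2 and 20 kPa (18.9% and 21.1%). The 14 genes that were lower on 20-kPa viscoelastic gels and not called for stiffness on elastic gels comprised 12 fork genes (Pola2, Pold1, Pold2, Pole, Pole2, Rfc1, Rfc2, Rfc5, Rpa1, Rpa2, Fen1 and Lig1), the loading factor Cdt1 and Chaf1b. The 5 genes that rose on elastic gels and were not called at 20 kPa between gel types were Orc6, Gmnn, Gins3, Pcna and Tyms.

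**Figure D4:**
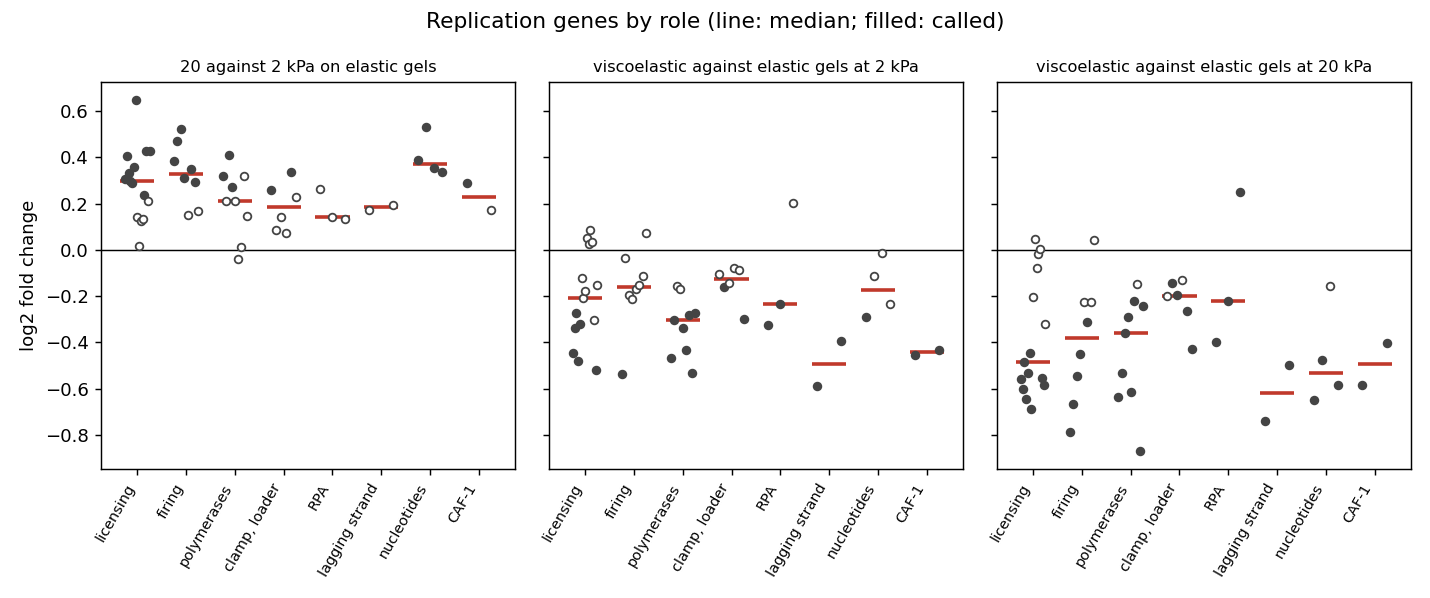
Each point is the edgeR log2 fold change of a replication gene, arranged by role along the horizontal axis, for stiffness on elastic gels and for gel type at 2 and at 20 kPa; filled points were called and red bars are medians of the role. Nucleotide supply genes are all filled for stiffness (4 of 4), and 13 of 20 fork points are filled below 0 for gel type at 2 kPa and 16 of 20 at 20 kPa (beside 5 of 20 filled for stiffness).

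Whether the effect of gel type depended on stiffness was tested by the interaction, the log2 stiffness difference found on viscoelastic gels less that found on elastic gels. By edgeR 2 of the 49 genes were called, Cdc7 and Mcm7, both negative, against 3.12% of all tested genes that were negative, and 0 were positive (0 at an unadjusted p under 0.05 and 0 with DESeq2), against 4.45%. The interaction was −0.63 on the log2 scale for Cdc7 (−0.92 to −0.35, edgeR adjusted p = 0.0102) and −0.32 for Mcm7 (−0.53 to −0.12, edgeR adjusted p = 0.0483). For the 49 genes the median was −0.13 and 42 values were negative. The call for Cdc7 held in 19 of 19 alternative settings and that for Mcm7 in 10 of 19. Rrm1, Rrm2 and Tk1 came next among nucleotide supply genes, with −0.36, −0.36 and −0.35 (edgeR adjusted p = 0.0744, 0.0795 and 0.107), and Orc1 had −0.48 (edgeR adjusted p = 0.0906). Leaving out 1 library at a time gave 1 to 4 called genes, the 4 without replicate 1 on 20-kPa elastic gels, 3 without replicate 3 on 2-kPa viscoelastic gels, and 1 without replicate 2 or 3 on 2-kPa elastic, 2 or 3 on 20-kPa elastic, 1 or 2 on 2-kPa viscoelastic, or 2 or 3 on 20-kPa viscoelastic gels.

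Lists of genes outside the 49 were read for comparison. Of all tested genes, 6.81% rose and 7.14% fell with stiffness on elastic gels. On viscoelastic gels 11.1% were lower and 8.77% higher at 2 kPa, and 16.1% were lower and 17.4% higher at 20 kPa. All list counts here and in the next paragraph stand against these shares, and the differences were not tested. Of 33 other origin and fork genes, 11 rose with stiffness on elastic gels. On viscoelastic gels 12 of them were lower at 2 kPa and 18 at 20 kPa. Uhrf1, which recruits the maintenance DNA methyltransferase behind the fork, had a mean viscoelastic effect of −0.59 on the log2 scale (edgeR adjusted p = 1.29e-05). Asf1a, a histone chaperone that hands histones to CAF-1, had one of 0.15 (edgeR adjusted p = 0.0155). It was called higher at 20 kPa (0.27, edgeR adjusted p = 0.00492) and not at 2 kPa (0.03, edgeR adjusted p = 0.765). Of 21 other nucleotide supply genes, 11 rose with stiffness on elastic gels. On viscoelastic gels 5 and 10 were lower at 2 and 20 kPa, and 3 were higher at each stiffness. The nucleoside transporter Slc29a1 had a mean effect of −0.56 and Paics, an enzyme of purine synthesis, of 0.20 (edgeR adjusted p = 1.42e-05 and 0.00159). Paics was called higher at 2 kPa (0.32, edgeR adjusted p = 0.00161) and not at 20 kPa (0.07, edgeR adjusted p = 0.363).

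Of 19 genes of E2F, pocket protein and related regulators, 3 rose with stiffness on elastic gels. On viscoelastic gels 5 were lower and 1 higher at 2 kPa, and 9 were lower and 2 higher at 20 kPa. Among the 19 were Rbl1, the pocket protein p107 (mean effect −0.55, edgeR adjusted p = 5.4e-05), and Lin37, a subunit of the DREAM complex (mean effect 0.29, edgeR adjusted p = 0.00155). Lin37 was called higher at 20 kPa (0.36, edgeR adjusted p = 0.00492) and not at 2 kPa (0.23, edgeR adjusted p = 0.0762). Of 18 G1 and S phase cyclin and kinase genes, 4 rose and 1 fell with stiffness on elastic gels. At 20 kPa 10 were lower and 2 higher on viscoelastic gels, against 16.1% and 17.4% of all tested genes. At 2 kPa 4 were lower and 0 higher by edgeR, while DESeq2 called 1 higher, against 11.1% and 8.77% by edgeR. Ccna2, cyclin A2, had a mean effect of −0.52 (edgeR adjusted p = 0.000151). Cdkn2b, an inhibitor of the G1 kinases, had a mean effect of 0.25 (edgeR adjusted p = 0.00379). It was higher at 20 kPa by 0.53 (edgeR adjusted p = 0.000383) and not called at 2 kPa (−0.03, edgeR adjusted p = 0.842). Of 20 mitotic genes, which belong to a later phase of the cycle, 15 rose with stiffness on elastic gels. On viscoelastic gels 11 and 20 of them were lower at 2 and 20 kPa, among them Bub1b, a spindle checkpoint kinase, with −0.65 on the log2 scale at 20 kPa (edgeR adjusted p = 0.000101).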

How the data were processed

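Poly-A RNA of mouse ear fibroblasts was measured in 12 samples, 3 in each of 4 gel groups, which were taken from the titles in GEO's labels. Per the labels and the study's methods, the authors trimmed reads with Trimmomatic, aligned with STAR to mm10, summed reads over GENCODE genes with featureCounts and deposited raw counts that were not normalized. The annotation release, the strand setting and the treatment of multi-mapping reads are not given in the sources used here, so reads of genes that overlap on opposite strands may not be separated.

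Tests used edgeR 4.0.16 (R 4.3.3) on these counts: filterByExpr (minimum count 10), TMM scaling, and a quasi-likelihood fit of all 12 samples with 1 coefficient per group, with BH adjustment over 14542 genes and an adjusted p under 0.05 as a call. Totals were 36626221 to 43612804 counts per sample, and edgeR's common biological coefficient of variation was 7.50%. The test was also run on simulated counts drawn with this common variation for every gene. That is a simpler setting than the real counts, and no result here rests on it. Alternatives were DESeq2 1.42.0, other scalings, no filter, 6 samples alone, a replicate block, offsets for gene length and GC content (known for 97.3% of tested genes from GENCODE M21), and leaving out each sample.

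The 49 genes and the other gene lists were chosen with earlier results of these data known. Every sample is given for the 2 genes with the lowest adjusted p in each role, for genes called in the interaction, and for Pcna, Mcm2, Cdt1 and Gmnn. From each other list the called gene with the lowest adjusted p in the mean viscoelastic effect is named, 1 per direction. Motifs were searched with Python 3.11.15, and the promoter table lists no window for Mcm4, Gmnn, Gins1, Gins2, Gins4, Prim2, Pole and Rfc2.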

Additional observations from a re-analysis of the deposited data

Results flagged for a closer look

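For 4 of the genes named, the effect of stiffness differed between the gel types by the interaction term of the edgeR fit, which takes the log2 stiffness difference on viscoelastic gels less that on elastic gels. The difference was −0.63 for Cdc7 and −0.32 for Mcm7, both of which rose with stiffness on elastic gels and were not called on viscoelastic gels. These are 2 of the 49 replication genes, a proportion near the 3.12% of all tested genes called negative, while 4.45% were called positive. The call for Mcm7 held in 10 of 19 alternative settings and was lost with the replicate block. The difference was also found at −0.37 for the mitotic gene Bub1b, whose call lay beside the threshold (edgeR adjusted p = 0.0478). For Cdkn2b, an inhibitor of the G1 kinases that fell with stiffness on elastic gels, it was 0.56 (edgeR adjusted p = 0.0101).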

How the results depend on the processing

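Counts of called replication genes stayed within 1.5 times the reported count under each alternative other than those named here. The interaction called 2 genes, but 5 without the filter on low counts, 4 with DESeq2 and 1 with the replicate block. Leaving out 1 library at a time gave 14 to 25 called genes for gel type at 2 kPa, 28 to 39 at 20 kPa, 36 to 41 for the mean viscoelastic effect, 11 to 28 for stiffness on elastic gels, 0 for stiffness on viscoelastic gels (edgeR, where 9 had an unadjusted p under 0.05 in the reported fit and DESeq2 called 0) and 1 to 4 for the interaction. The mean viscoelastic effect of Rpa3, 0.23 as reported, turned to −0.0084 with offsets for gene length and GC content and to −0.011 with these and the replicate block, and the cause was not tested. For single genes, 2160 of the other values kept direction and side of the threshold, 47 passed it anew and 45 no longer passed; with a library left out these were 3338, 31 and 159. Deviations of same-numbered samples from their group means correlated by −0.16 to 0.308. The correlation was above 0.1 in 2 of 12 pairs, both between the viscoelastic groups (0.184 and 0.308). Such values cannot show whether same-numbered samples shared a culture or a batch. With the replicate block, the counts for gel type were 21 at 2 kPa and 35 at 20 kPa, and 24 genes rose with stiffness on elastic gels. Fen1, at 40 to 87 reads per sample, had the least depth.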
